A study of Mus musculus with 6 samples.

Results

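Methylation of autosomal DNA was compared between mouse marrow cultured for 4 days and marrow that was never cultured. The comparison took 4 of the 6 samples of a reduced representation bisulfite sequencing series: day 0 replicates 2 and 3, which are uncultured bone marrow, and day 4 replicates 1 and 2, which are all live cells after 4 days in medium with Flt3L. All are labelled male C57BL/6J. The labels give no age and do not say whether samples came from separate animals. Except for Fisher's exact test on pooled reads, the p-values here therefore cover the spread among the sequenced samples, and that spread may be of technical origin. The labels call the day 4 cells common myeloid progenitors, although no sort for that cell type was made, and the Flt3L came in the supernatant of a transfected SP2/0 line. Uncultured marrow is itself a mixture of blood cell types, and neither label could be checked against marker genes, since only DNA methylation was measured. The day 7 dendritic cell samples of the same series enter no difference between day 4 and day 0. They are used to group units by level and as values of a later stage.

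The units were set by spacing and reads, without regard to level. A run was a stretch of at least 3 listed cytosines with neighbours at most 100 bp apart and at least 10 reads, summed over the run, in each of the 4 samples. Of 68039 such stretches on chromosomes 1 to 19, 66759 met the read minimum. They held 407711 of the 641910 autosomal cytosines, or 63.5%, out of 652716 cytosines in the whole table. The median run had 4 cytosines over 88 bp, with a mean gap of 19.8 bp between neighbours. The 234199 cytosines outside these runs, 4150 of them in runs with too few reads, were pooled by local density and by chromosome, and 233820 of them were read in each of the 4 samples.

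In mammalian DNA most CpG cytosines carry a methyl group, which DNA methyltransferases copy onto the new strand after each cell division and can also add to unmethylated sites. CpG islands, where CpG sites lie close together, usually stay free of it, while scattered CpG sites are usually methylated. Blood progenitors that leave the stem cell state are known to change methylation at regulatory elements of their lineage. A shift of the bulk level is a different kind of event, and in a mixed sample it can also follow from other proportions of cell types, which bulk DNA cannot tell apart from a change within cells.

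The depth at autosomal cytosines was 9931324 and 7669829 reads in day 0 replicates 2 and 3 and 10119031 and 6656653 reads in day 4 replicates 1 and 2. The median run held 65 and 50 reads at day 0 and 66 and 43 reads at day 4. Each group thus had a deeper and a shallower sample, and in both groups the deeper one also had the higher mean level over runs and over cytosines outside runs. The part of depth in the result was not tested. On the mitochondrial sequence, which is used here as a gauge of cytosines left unconverted by bisulfite, methylated reads made up 0.547% (95% Wilson interval 0.320 to 0.934) and 0.490% (0.248 to 0.964) at day 0 and 1.17% (0.769 to 1.79) and 0.664% (0.361 to 1.22) at day 4, on 1507 to 2375 reads at 31 cytosines.

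Day 4 cells stood slightly higher in methylation than uncultured marrow. The mean level over all 66759 runs, each run counted once, was 48.3% and 46.7% in uncultured marrow and 49.8% and 48.4% after culture. The day 4 pair lay wholly above the day 0 pair, but the gap between day 4 replicate 2 and day 0 replicate 2 was only 0.127 points. The group means were 47.5% ± 1.11 and 49.1% ± 0.980 (SD, n = 2 each), a difference of 1.61 points (exact two-sided permutation p = 0.3333, the smallest that 2 samples against 2 can give). The 2 day 0 samples differed from each other by 1.57 points and the 2 day 4 samples by 1.39 points. The difference between the groups was therefore about as large as that between samples of 1 group, and it was 0.821 points without day 0 replicate 3 and 2.39 points without day 0 replicate 2. The median run stood at 66.7% and 62.1% at day 0 and at 70.0% and 65.6% at day 4, and on that measure the groups overlapped.

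Cytosines outside the runs, most of them in stretches of fewer than 3 listed cytosines, were more methylated and stood further apart. Their mean level was 67.6% and 64.5% in uncultured marrow and 70.2% and 67.7% after culture. The group means were 66.1% ± 2.19 and 69.0% ± 1.83 (SD, n = 2 each), a difference of 2.86 points (exact two-sided permutation p = 0.3333). Here day 4 replicate 2 exceeded day 0 replicate 2 by 0.0150 points, while the day 0 samples differed by 3.10 points and the day 4 samples by 2.58 points. The difference between the groups was 1.31 points without day 0 replicate 3 and 4.41 points without day 0 replicate 2.

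The shift depended on where a run started. To keep the noise of a sample out of both the grouping and the difference, runs with at least 20 reads in each sample were grouped by their level in 1 day 0 sample and the day 4 samples were set against the other day 0 sample, both ways round. Runs that started below 5% hardly differed: by the mean of both ways they were 0.0603 points higher at day 4. Runs starting at 5 to 20% were 0.122 points higher and runs at 20 to 50% were 0.992 points higher. In the methylated classes the difference was 3.02 points at 50 to 80%, 2.69 points at 80 to 95% and 1.79 points at 95% or more.

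Set against day 0 replicate 3, both day 4 samples were higher in each methylated class. Of the 17433 runs that stood at 80 to 95% in day 0 replicate 2, the mean was 82.8% in day 0 replicate 3, 87.9% in day 4 replicate 1 and 85.8% in day 4 replicate 2. Set against day 0 replicate 2, most of the difference belonged to 1 day 4 sample. Of the 14580 runs that stood at 80 to 95% in day 0 replicate 3, the mean was 86.0% in day 0 replicate 2, 88.4% in day 4 replicate 1 and 86.3% in day 4 replicate 2. The differences were thus 2.41 and 0.272 points against day 0 replicate 2, beside 5.09 and 2.97 points against day 0 replicate 3. In the 50 to 80% class they came to 2.73 and 0.122 points against day 0 replicate 2, and to 6.00 and 3.25 points against day 0 replicate 3.

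**Figure D1:**
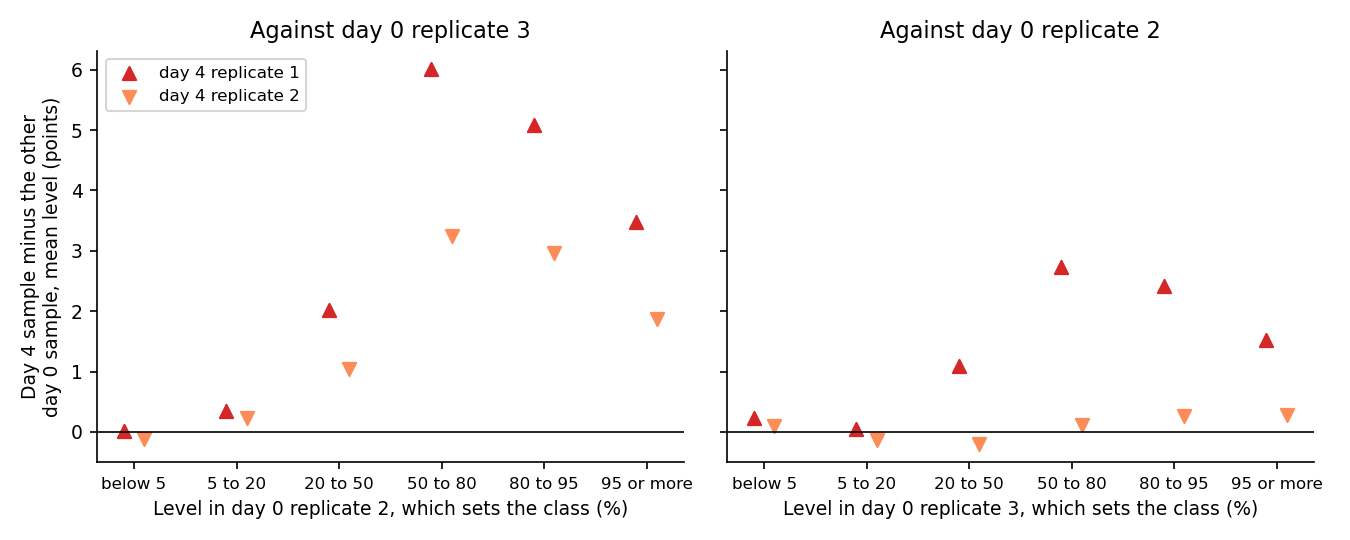
Mean level of runs in each day 4 sample minus the day 0 sample that did not set the class (points, vertical axis), by the starting level in the other day 0 sample (percent, horizontal axis); each point is 1 day 4 sample. Differences are near 0 in runs that started below 5%, largest at 50 to 80% for day 4 replicate 1, and between -0.193 and 0.282 points for day 4 replicate 2 against day 0 replicate 2 in every class.

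Grouping by the mean of the day 7 samples, which share no reads with the 4 samples compared, put all samples on 1 set of runs, those with at least 10 reads in all 6 samples. That keeps the counting noise of the 4 samples out of the classes. Day 7 is, however, a later stage of culture, so a likeness between day 4 and day 7 can enter the differences of these classes. This also applies to the later groupings by day 7, and its part was not tested. The 19004 runs below 5% at day 7 stood at 0.929% and 1.14% at day 0 and at 1.15% and 0.998% at day 4. The 17431 runs at 80 to 95% stood at 84.5% and 81.8% at day 0 and at 87.0% and 84.7% at day 4. The former overlapped and the latter did not, with group means of 83.1% ± 1.91 and 85.8% ± 1.66 (SD, n = 2 each; exact two-sided permutation p = 0.3333). Between these, the 2681 runs at 20 to 50% stood at 33.2% and 31.9% at day 0 and at 33.3% and 33.0% at day 4. Runs of intermediate level thus differed by 0.609 points, beside 3.06 points in the 9236 runs at 50 to 80% and 2.36 points in the 2946 runs at 95% or more. A run near the top of the scale has little left to gain, so the same values are also given as the unmethylated part. At 80 to 95% that part was 16.9% at day 0 and 14.2% at day 4, a relative difference of -16.02%, and at 95% or more it was 12.1% and 9.74%, a relative difference of -19.5%. At 50 to 80% the relative difference was -10.5% and at 20 to 50% it was -0.903%. Within a group, the unmethylated part at 80 to 95% differed by a relative -14.8% from day 0 replicate 3 to replicate 2 and by -15.3% from day 4 replicate 2 to replicate 1.

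Cytosine density ordered the shift. Density was taken as the mean gap between neighbouring listed cytosines of a run, a small gap meaning densely listed cytosines. Cytosines that the series does not list were not counted, so a wide gap need not mean few CpG sites. The same holds for the neighbour numbers outside runs. In the 6436 densest runs, with gaps of up to 8 bp, the mean level was 32.9% and 32.2% at day 0 and 33.8% and 33.0% at day 4, a difference of 0.890 points. With gaps of 8 to 16 bp the difference was 1.02 points, at 16 to 32 bp it was 1.66 points and at 32 to 64 bp it was 2.45 points. In the 1654 sparsest runs, with gaps over 64 bp, the level was 67.7% and 64.1% at day 0 and 70.7% and 67.6% at day 4, a difference of 3.28 points. In this sparsest class the groups overlapped, because day 4 replicate 2 lay 0.121 points below day 0 replicate 2, while in the 4 denser classes they did not. The difference in the sparsest class was 1.44 points without day 0 replicate 3 and 5.12 points without day 0 replicate 2, and in the densest class 0.498 points without day 4 replicate 1 and 1.28 points without day 4 replicate 2.

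Outside the runs, with each cytosine counted once, sparser classes also differed more. The 44032 cytosines with no other listed cytosine within 500 bp stood at 71.1% and 67.2% at day 0 and at 74.2% and 70.8% at day 4, a difference of 3.36 points with overlap. With 1 to 2 neighbours (123698 cytosines) the difference was 3.04 points, with 3 to 5 neighbours (45461) it was 2.53 points and with 6 or more (20629) it was 1.42 points, none of the last 3 with overlap. With reads pooled, so that deep cytosines weigh more, the 4 differences were 3.31, 3.15, 2.83 and 2.98 points, and the densest class no longer stood apart. The difference between the samples of a group followed density in the same way. Day 0 replicate 2 exceeded replicate 3 by 0.696 points in the densest runs and by 3.68 points in the sparsest, and day 4 replicate 1 exceeded replicate 2 by 0.786 and 3.12 points.

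**Figure D2:**
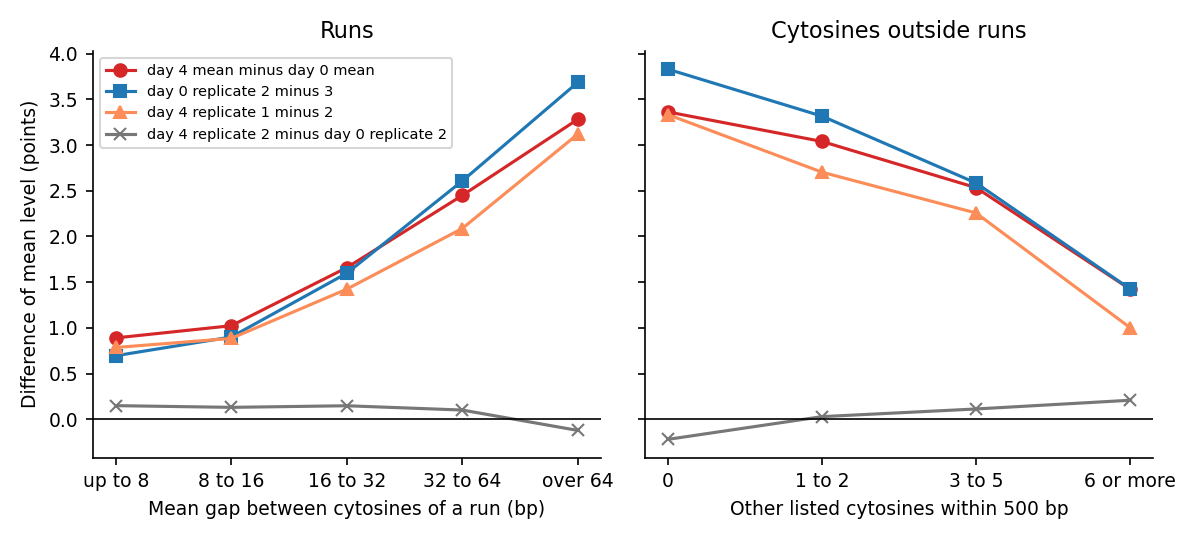
Differences of mean level in points (vertical axes) by density, for runs (left, mean gap in bp, dense to sparse) and for cytosines outside runs (right, number of other listed cytosines within 500 bp, sparse to dense). The difference between day 4 and day 0 reaches 3.28 points in the sparsest runs, the 2 differences within a group run beside it, and day 4 replicate 2 minus day 0 replicate 2 stays between -0.219 and 0.209 points.

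Much of the density order went with the level, sparse runs being more methylated. Within runs at 80% or more at day 7 the difference was 2.11 points at gaps of up to 8 bp (1189 runs), 2.32 at 8 to 16 bp, 2.61 at 16 to 32 bp, 2.999 at 32 to 64 bp and 3.47 points over 64 bp (588 runs), with overlap in the last class. The densest of these runs stood at 89.0% and 87.4% at day 0 and at 91.1% and 89.6% at day 4, and the sparsest at 80.8% and 77.1% and at 84.2% and 80.7%. Taken as the unmethylated part, the difference no longer followed density: the relative difference of that part was -17.9%, -16.5%, -16.4%, -16.1% and -16.5% from the densest class to the sparsest. Dense runs of this class, in which few cytosines were left unmethylated, thus differed by as large a fraction of that remainder as sparse ones. Within runs at 50 to 80% at day 7 the order was less clear, at 3.29, 2.45, 2.94, 3.20 and 4.29 points from the densest class to the sparsest. The relative differences of the unmethylated part there were -12.6%, -9.25%, -10.4%, -10.5% and -12.7%. Within runs below 5% at day 7 the difference was at most 0.0479 points in the 4 denser classes. Only 37 such runs were in the sparsest class, where the day 4 pair lay wholly below the day 0 pair with a mean difference of -0.184 points.

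Methylated cytosines outside runs resembled methylated runs. Among those with at least 5 reads in all 6 samples, the 23143 at 80 to 95% at day 7 stood at 81.4% and 78.1% at day 0 and at 84.6% and 81.7% at day 4. The relative difference of their unmethylated part was -16.8%, beside -16.02% in the runs of that class. The 19015 at 50 to 80% stood at 70.9% and 66.9% at day 0 and at 74.4% and 71.0% at day 4, a difference of 3.77 points. Among the 2983 at 5 to 20% the day 4 pair lay wholly below the day 0 pair, at 9.28% and 9.10% against 9.47% and 9.33%.

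The difference in methylated runs was present at every read number and run size. Runs at 80% or more at day 7 were put into 4 equal classes by reads, and the shallowest (median 32.5 reads per sample) differed by 2.82 points and the deepest (median 98.3) by 2.38 points. In each class the day 4 pair lay wholly above the day 0 pair, but day 4 replicate 2 exceeded day 0 replicate 2 by only 0.137 to 0.300 points. The day 0 samples differed from each other by 2.22 to 2.83 points in these classes and the day 4 samples by 2.23 to 2.32 points. Runs of 3 to 4 cytosines differed by 2.80 points, runs of 5 to 9 by 2.43 and runs of 10 or more by 2.23. By run size, day 4 replicate 2 exceeded day 0 replicate 2 by 0.0641 to 0.581 points. The first and last cytosines of these runs differed by 2.70 points and the inner ones by 2.45 points. The share of methylated mitochondrial reads was highest of the 4 in day 4 replicate 1. Runs below 5% at day 7 stood at 0.929% and 1.14% at day 0 and at 1.15% and 0.998% in day 4 replicates 1 and 2, a mean difference of 0.0376 points. Day 4 replicate 1 exceeded day 0 replicate 2 by 0.219 points in these runs, and day 4 replicate 2 was 0.143 points below day 0 replicate 3. The part of conversion in the result was not tested.

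The shift was spread over all autosomes. The mean level of runs was higher at day 4 on 19 of 19 chromosomes, by 1.42 points on chromosome 19 to 1.76 points on chromosome 4. The samples of a group differed as evenly. On every chromosome day 0 replicate 2 exceeded replicate 3, by 1.16 to 1.98 points. Day 4 replicate 1 likewise exceeded replicate 2, by 1.11 to 1.64 points. Chromosomes of 1 sample share a library and are not replicates. The day 4 pair lay wholly above the day 0 pair on 12 of the 19 chromosomes (63.2%), and on 0 of them wholly below. Runs on chromosome 11, the least methylated autosome by this measure, stood at 42.6% and 41.5% at day 0 and at 44.2% and 43.1% at day 4, and those on chromosome 18 at 51.5% and 49.5% and at 52.9% and 51.4%. The former did not overlap, and the latter overlapped because day 4 replicate 2 was a little below day 0 replicate 2.

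For cytosines outside runs the difference went from 2.58 points on chromosomes 3 and 7 to 3.12 points on chromosome 12, and the groups were apart on 10 of 19 chromosomes (52.6%). On chromosome 12 the level was 68.5% and 65.4% at day 0 and 71.3% and 68.9% at day 4, and on chromosome 3 it was 69.1% and 66.1% and 71.7% and 68.7%. On each of the 19 chromosomes day 0 replicate 3 was lowest and day 4 replicate 1 highest, while the other 2 samples lay close together. In runs at 80% or more at day 7 the groups were apart on 14 of 19 chromosomes (73.7%), with differences of 2.39 to 3.11 points.

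**Figure D3:**
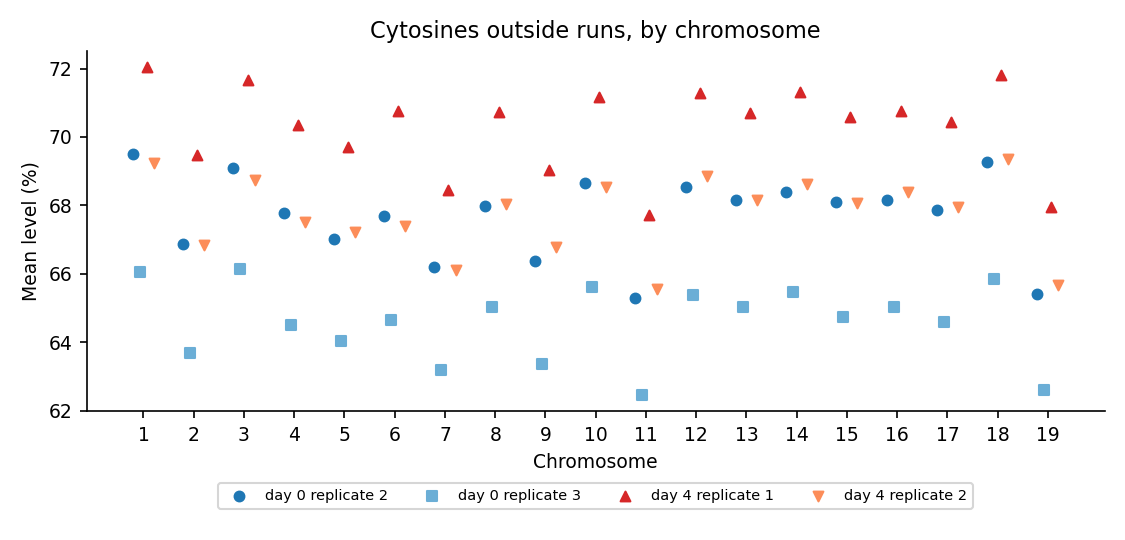
Mean level of cytosines outside runs (percent, vertical axis, not starting at 0) on each of the 19 autosomes (horizontal axis); each point is 1 sample. Day 4 replicate 1 is highest and day 0 replicate 3 lowest on all 19, with day 0 replicate 2 and day 4 replicate 2 near each other between them.

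Along the chromosomes the shift was broad. Over 2406 windows of 1 Mb with at least 20 listed cytosines (median 199), the mean level was higher at day 4 in 2273, or 94.5%, and the median difference was 1.84 points, with 5% of windows below -0.0491 and 5% above 4.52 points. In 1144 windows (47.5%) the day 4 pair lay wholly above the day 0 pair and in 7 (0.291%) it lay wholly below. Windows with more cytosines were more uniform: of the 602 with the most, 597 were higher at day 4 and 374 (62.1%) did not overlap. The samples of a group differed as broadly, day 0 replicate 2 lying above replicate 3 in 91.6% of windows, by a median of 1.91 points, and day 4 replicate 1 above replicate 2 in 91.9%, by a median of 1.76 points.

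Among windows with at least 100 cytosines, named after their values were seen, the largest difference was on mm9 chromosome 17 from 70000001 to 71000000, at 65.8% and 60.4% at day 0 and 70.5% and 69.1% at day 4. In the other direction the largest was on chromosome 1 from 161000001 to 162000000, at 52.2% and 50.2% at day 0 and 50.1% and 49.4% at day 4. That window was the only 1 of 1780 in which the day 4 pair lay wholly below the day 0 pair.

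**Figure D4:**
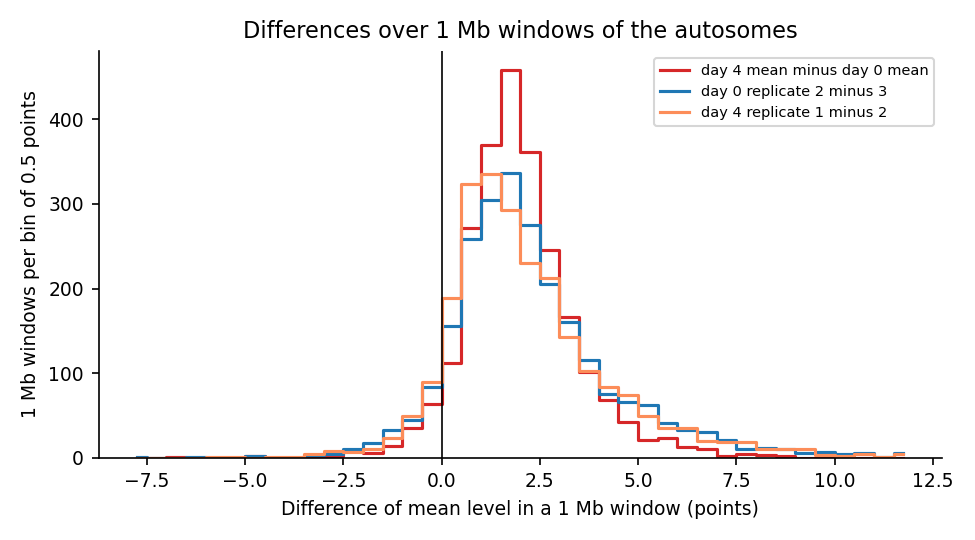
Number of 1 Mb windows (vertical axis, bins of 0.5 points) by difference of mean level in points (horizontal axis), for day 4 minus day 0 and for the 2 differences within a group; the last bin on each side also holds values beyond it. All 3 distributions lie mostly to the right of 0, with medians of 1.84, 1.91 and 1.76 points.

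Single runs showed the shift only weakly. The day 4 pair lay wholly above the day 0 pair in 13731 of 66759 runs (20.6%) and below in 6689 (10.0%). Among runs below 5% at day 7 the shares were 11.4% and 10.2%, and at 20 to 50% they were 20.3% and 17.1%. Among runs at 50 to 80% the shares were 26.7% and 9.53%, at 80 to 95% they were 27.3% and 8.39%, and at 95% or more 25.8% and 8.76%. The shares above all stood over the background in these 3 methylated classes and at or under it in the others. Within runs at 50% or more at day 7, the share above went from 24.4% at gaps of up to 8 bp to 30.1% over 64 bp and the share below from 9.29% to 6.57%.

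The difference of single runs was hardly correlated between independent pairs of samples. In the 17850 runs at 80% or more at day 7 that had 20 reads or more per sample, day 4 replicate 1 minus day 0 replicate 2 and day 4 replicate 2 minus day 0 replicate 3 had a Pearson correlation across runs of 0.0283, and the other pairing of the samples 0.0112. In the 8057 such runs at 50 to 80% at day 7 the values were 0.0579 and 0.0466. For the differences within groups the correlation was 0.0165 at 80% or more and 0.0102 at 50 to 80%. How far counting error lowered these values was not tested. Runs differ in depth and share a library within each difference, and runs are not replicates, so these values are descriptions. Neighbouring runs at 80% or more at day 7 that lay 100 to 1000 bp apart had a correlation of 0.0890 in the difference between the groups (1020 pairs). Beside it, the correlation was 0.111 for the difference within day 0. Between the groups, the correlation was -0.00107 at 1000 to 10000 bp (2198 pairs). It was 0.0258 at 10000 to 100000 bp (8106 pairs) and 0.0108 at 100000 to 1000000 bp (6298 pairs). A correlation leaves out a shift that all runs have in common. How far counting error lowered these values was not tested either.

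By edgeR's likelihood ratio test with Benjamini-Hochberg adjustment, 4840 of 63635 runs tested (7.61%) had an unadjusted p below 0.05, of which 3579 were higher at day 4 (5.62%) and 1261 lower (1.98%). Among runs at 80 to 95% at day 7, 7.44% were higher and 1.53% lower at that threshold, and at 95% or more 9.07% and 1.97%. Among runs at 20 to 50% the shares were 2.46% and 2.87%, and below 5% they were 3.69% and 2.44%. After adjustment 7 runs (0.0110%) passed with a difference of at least 20 points, 5 higher (0.00786%) and 2 lower (0.00314%), and 9 (0.0141%) without that minimum. The quasi-likelihood test, limma and a trended dispersion called 0 runs, with 2545, 3416 and 4753 at an unadjusted p below 0.05, and pooling the reads for Fisher's exact test called 461. Fisher's test treats reads as replicates and leaves out the spread between the samples of a group. No sequence is shown, because no genome of the mm9 build was used here, and no run was assigned to a gene.

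The 5 runs that rose went from partial to near full methylation. On chromosome 9 from 3293780 to 3293822 (4 cytosines, 20 to 40 reads) the level was 53.1% and 70.8% at day 0 and 100% and 95% at day 4 (adjusted p = 0.04586, edgeR), with 76.3% and 96.7% at day 7. On chromosome 5 from 103080822 to 103080939 (7 cytosines) it was 86.2% and 66.7% at day 0 and 98.03% and 100% at day 4 (adjusted p = 0.04586, edgeR), with 96.3% and 70.0% at day 7, the 70.0% on 10 reads. At the 100% levels the reads allowed up to 7.5% unmethylated in the first run and 7.69% in the second. The naming rule listed only runs in which both day 4 samples lay beyond both day 0 samples. Each call was lost without some of the samples, the first without any of the 4 and the second without any but day 0 replicate 2. With each sample left out, the first run differed by 26.7 to 44.4 points and the second by 12.9 to 32.3 points.

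The other 3 rises had fewer than 20 reads in some sample, which puts them outside the naming rule, and they were named after their values were seen. All stood at 100% in both day 4 samples. In day 4 replicate 2 the reads allowed up to 12.5%, 20% and 10% unmethylated on chromosomes 4, 9 and 10. The run on chromosome 4 from 10618452 to 10618486 started at 74.1% and 33.3% (adjusted p = 0.01426, edgeR). It had 15 to 27 reads per sample, and the 33.3% rested on 15. It also stood at 100% in both day 7 samples. The run on chromosome 9 from 47406786 to 47406820 started at 73.3% and 66.7% and that on chromosome 10 from 54754123 to 54754187 at 72.2% and 77.8% (adjusted p = 0.04586 each, edgeR), on 15 to 46 reads per sample. At day 7 the former stood at 90.9% and 60.0%, the second on 5 reads and below both day 0 samples, and the latter at 93.5% and 100%, the 100% on 9 reads. The chromosome 4 run stayed called without day 0 replicate 2 and was lost without any other sample, with an adjusted p of up to 0.246, the chromosome 9 run likewise with up to 0.455, and the chromosome 10 run was lost without any of the 4, with up to 0.328.

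In the other direction 2 runs fell. On chromosome 9 from 45648360 to 45648410 (3 cytosines, 21 to 36 reads) the level was 66.7% and 50% at day 0 and 9.52% and 4.76% at day 4 (adjusted p = 0.04586, edgeR), with 29.03% and 55.6% at day 7, the 55.6% on 9 reads. On chromosome 16 from 87722784 to 87722800 (5 cytosines, 20 to 67 reads) it was 79.2% and 97.01% at day 0 and 33.9% and 60.0% at day 4 (adjusted p = 0.04586, edgeR), with 58.6% in day 7 replicate 1 and no read in replicate 4. The former was lost without any of the 4 samples, with an adjusted p of up to 0.213, and the latter without day 0 replicate 3 or day 4 replicate 1, with up to 0.591.

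Below the minimum difference, 2 runs passed the adjusted threshold. The run on chromosome 8 from 122109954 to 122110141 had 15 cytosines and 80 to 213 reads at day 0 and day 4, more cytosines, and more reads in each sample, than any of the 7 called runs. Its level was 20.2% and 9.85% at day 0 and 0.939% and 0% at day 4, where 80 reads allow up to 3.75% (adjusted p = 0.01426, edgeR), and it was 1.35% and 2.33% at day 7. On chromosome 4 from 100008381 to 100008425 (4 cytosines) the level was 21.4% and 11.4% at day 0 and 0% in both day 4 samples, where 68 and 48 reads allow up to 4.41% and 6.25% (adjusted p = 0.04586, edgeR). The chromosome 8 run also passed with a trended dispersion (adjusted p = 0.003105) and with all 6 samples in the model (0.01586), and not in the quasi-likelihood test (0.3459). Its adjusted p stayed below 0.05 without day 0 replicate 3 and did not without any other sample, reaching 0.159, and that of the chromosome 4 run did not without any of the 4, reaching 0.317. Both went from low to nearly no methylation, and in both the day 7 samples lay below both day 0 samples, on 4 reads in day 7 replicate 4 for the chromosome 4 run.

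**Figure D5:**
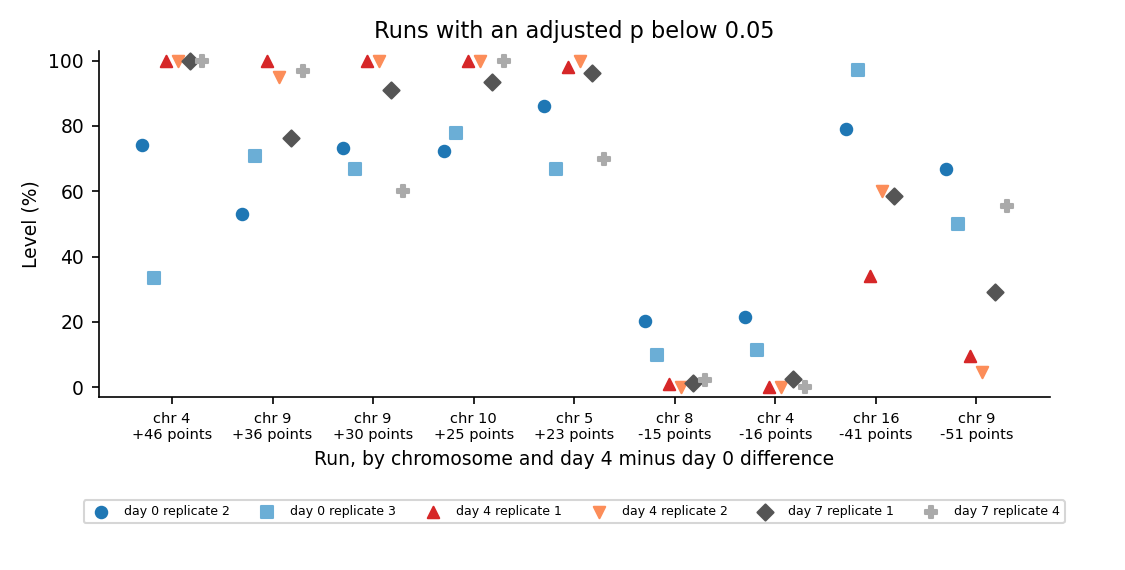
Level in percent (vertical axis) of the 9 runs with an adjusted p below 0.05, ordered by their difference (horizontal axis); each point is 1 sample, day 7 included for comparison where it has reads. The 5 rises end at 95% to 100% in the day 4 samples, and the 2 falls of under 20 points end at 0% to 0.939%.

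The naming rule filled its places with 8 further rises and 8 further falls that were not called. The 10 rises differed by 22.5 to 48.9 points and the 10 falls by 22.8 to 51.2 points, on 20 to 152 reads. Of the 10 rises 7 reached a mean of at least 95% at day 4. The largest difference among the rises was on chromosome 11 from 57500980 to 57501039 (4 cytosines), at 45.5% and 18.5% at day 0 and 72.5% and 89.2% at day 4 (adjusted p = 0.06995, edgeR). Among the falls not called, the run on chromosome 7 from 111436073 to 111436121 stood at 66.7% and 44.2% at day 0 and at 0% and 16.7% at day 4, where 24 reads allow up to 12.5% in the former (adjusted p = 0.06995, edgeR).

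Set beside the later stage, the most methylated runs were on average no higher at day 7 than at day 4, while runs of lower starting level were. Runs that started at 80 to 95% averaged 84.4% at day 0, 87.1% at day 4 and 87.02% at day 7, and those at 95% or more 89.4%, 91.2% and 90.02%. Runs starting at 50 to 80% averaged 73.3%, 76.4% and 77.5%, those at 20 to 50% 37.3%, 38.3% and 40.6%, and those below 5% 1.21%, 1.27% and 2.42%. Methylated reads on the mitochondrial sequence were also higher at day 7, at 2.27% and 1.76% against 1.17% and 0.664% at day 4, and their part in these day 7 levels was not tested. The 2 day 7 samples stood at 88.0% and 86.1% in the 80 to 95% class, between the day 4 values of 88.1% and 86.01%, and these day 7 values were not tested.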

How the data were processed

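DNA was cut with MspI or TaqI in separate aliquots that were pooled before bisulfite treatment, per the labels' protocols. Bismark and Bowtie2 on mm9 are named in the submitters' processing notes, while their versions, read trimming and the treatment of duplicates were not given in the sources used here. In 1 table the authors deposited a methylated fraction and the counts of methylated and unmethylated reads per cytosine, and levels here were computed from those deposited counts. Without molecular identifiers, intervals and limits cover counting error only, and a count of 0 was taken to allow up to 3 reads.

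The test per run was made in edgeR 4.0.16 (R 4.3.3) on summed counts of the 4 samples (a term per sample, a methylation term per group, dispersion without a trend, likelihood ratio test). A call needed an adjusted p below 0.05 and 20 points. The 63635 runs tested had at least 1 methylated and 1 unmethylated read. On simulated counts for this comparison over 61628 runs, 35% of runs planted with 20 points and 97% of those planted with 50 points were recovered, and 6 of the 138 calls were false. Only rises were planted, in runs with a mean level below 50%, under a common dispersion and without a broad shift between samples. These shares therefore do not cover falls, or runs of higher mean level such as the called rises. Group levels were compared by exact permutation in scipy 1.17.1. Alternatives included limma 3.58.1 with a pseudocount of 0.5. Named runs were the 10 largest called rises and falls with at least 20 reads per sample and no overlap, filled by the smallest p among those differing by 20 points. The members, lists and tests were chosen with earlier results of these data known.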

Additional observations from a re-analysis of the deposited data

How the results depend on the processing

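Among the alternative values of the group results, 136 kept their direction and moved by less than 1 SD between replicates (levels by class) or 1.5 times (counts). The 2 overall means were held to direction and test only. Another 38 moved further and 3 changed sign. With 2 samples per group, leaving 1 out always moves the mean of its group by less than the SD of that group. The leave-one-out levels among the 136 therefore say little about stability. The mean difference over runs was 0.821 to 2.39 points with each sample left out, that over cytosines outside runs 1.31 to 4.41 points. Runs starting below 5% changed sign without day 0 replicate 2 (-0.0468 points) and without day 4 replicate 1 (-0.0100), within a range of -0.0468 to 0.167, and those at 5 to 20% without day 0 replicate 3 (-0.0470), within -0.0470 to 0.291 (the cause was not tested). Runs at 5 to 20% differed by 0.263 points with 50 reads per run and by 0.733 with reads pooled. With classes by the 4-sample mean, runs at 20 to 50% differed by 0.137 points and at 95% or more by 0.867. Cytosines outside runs with 6 or more neighbours differed by 2.98 points with reads pooled. With a sample left out, the classes at 50% or more ranged from 0.906 to 4.63 points, the sparsest runs from 1.44 to 5.12 and the densest from 0.498 to 1.28. The 7 calls became 0 under the quasi-likelihood test, limma, a trended dispersion and a minimum of 10 reads per cytosine, 461 under Fisher's exact test, 4 with 20 reads per run, 1 with gaps of at most 50 bp, 2 with 5 cytosines, 1 with all 6 samples and 1 to 17 with each sample left out. Pooled by reads, cytosines outside runs were apart on 16 chromosomes in place of 10. With a sample left out fewer samples must be apart, and the counts were 12 to 19 chromosomes for runs, 10 to 19 outside runs, 48.9% to 91.0% of windows above and 0.457% to 10.4% below, and 31.7% to 41.5% of runs above and 18.5% to 25.1% below. With 100 cytosines per window, 0.0562% lay below. Leaving samples out of the windows, the order of samples per run and the density classes of runs was added after seeing the data. No paired analysis was possible because the groups share only replicate number 2. With a median of 8 to 12 reads per cytosine outside runs, single cytosines were not compared.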
